A study of Mus musculus with 10 samples.

Results

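The Nr4a family consists of the orphan nuclear receptor genes Nr4a1, Nr4a2 and Nr4a3, and the regions described here are those of 8 peak lists that lie in these genes or within 50 kb of them. There are 315 such regions among 651012 in all, at 3 of 21887 protein-coding genes. The lists come from chromatin immunoprecipitation and sequencing (ChIP-seq) of cortical neurons cultured from C57BL/6J mice to day 6 in vitro and kept overnight in medium with 3% serum. The control cultures were left untreated, and the others were depolarized with KCl at 50 mM for 45 min. The 4 antibodies were against Gtf3c1 (a DNA-binding subunit of TFIIIC, the assembly factor of RNA polymerase III), Rpc155 (the catalytic subunit of that polymerase), H3K4me1 (a histone mark of enhancers) and H3K27ac (found at enhancers and promoters in use). Each antibody and condition has 1 list. The design text speaks of 3 biological replicates, with their pooling not given in the sources used here. So differences between untreated and KCl have no replicate check and carry no p-value. Input chromatin was sequenced in 2 further samples that were not analysed here. In such bulk chromatin a wider or stronger region in the same share of cells and one present in more cells cannot be told apart.

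Nr4a receptors bind DNA through zinc fingers and act without a known physiological hormone, so their activity is set mainly by how much of them is made. In neurons they are immediate-early genes: calcium entry after depolarization activates CREB and its coactivators, and the genes are transcribed within minutes without new protein synthesis. Nr4a1 (also Nur77) acts in metabolism, apoptosis and the density of dendritic spines, Nr4a2 (Nurr1) is required for midbrain dopamine neurons and takes part in memory, and Nr4a3 is an immediate-early gene of neurons, muscle and blood cells. Nr4a1 and Nr4a2 can pair with the retinoid X receptor, which Nr4a3 does not readily do.

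Nr4a1 (gene ID 15370) lies on the plus strand of chromosome 15, 101253902 to 101274795, on GRCm38. RefSeq gives it a length of 20894 bp, and its promoter window places the start at 101266846, which is 12944 bp inside the gene as annotated. Nr4a2 (gene ID 18227) lies on the minus strand of chromosome 2, 57106830 to 57124003 (17174 bp), with its start at 57124003. Nr4a3 (gene ID 18124) lies on the plus strand of chromosome 4, 48045078 to 48086447 (41370 bp), with its start at 48045305. The surroundings differ. Within 50 kb of Nr4a1 there are 4 other protein-coding genes, Acvr1b, Grasp, Atg101 and Smim41, whereas Nr4a3 has only Stx17, 38459 bp away. The start of Nr4a2 is overlapped by the predicted gene LOC105244150.

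The promoter windows of the 3 genes are shown because at Nr4a1 and Nr4a3 the strongest KCl summits of Gtf3c1 lay in them and at Nr4a2 the window was covered with KCl alone. Each window is from RefSeq on GRCm38.p6, runs from 250 bases before to 50 after the start, and is written 5′ to 3′ on the strand of the gene. Capitals mark TGACG and its reverse complement CGTCA, the core of the cAMP response element that CREB recognises.
Nr4a1 promoter, chr15:101266596-101266895, plus strand: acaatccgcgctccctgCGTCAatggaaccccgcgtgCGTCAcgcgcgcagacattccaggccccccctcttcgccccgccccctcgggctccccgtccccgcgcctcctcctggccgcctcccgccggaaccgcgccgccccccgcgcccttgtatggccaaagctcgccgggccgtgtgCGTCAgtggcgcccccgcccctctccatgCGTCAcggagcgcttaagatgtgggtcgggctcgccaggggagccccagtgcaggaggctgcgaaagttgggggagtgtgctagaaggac
Nr4a2 promoter, chr2:57123954-57124253, minus strand: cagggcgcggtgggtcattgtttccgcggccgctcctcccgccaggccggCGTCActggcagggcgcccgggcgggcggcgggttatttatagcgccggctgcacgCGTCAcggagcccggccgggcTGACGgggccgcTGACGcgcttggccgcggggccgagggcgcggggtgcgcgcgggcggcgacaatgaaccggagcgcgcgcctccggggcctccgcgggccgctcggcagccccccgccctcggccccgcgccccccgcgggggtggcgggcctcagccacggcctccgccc
Nr4a3 promoter, chr4:48045055-48045354, plus strand: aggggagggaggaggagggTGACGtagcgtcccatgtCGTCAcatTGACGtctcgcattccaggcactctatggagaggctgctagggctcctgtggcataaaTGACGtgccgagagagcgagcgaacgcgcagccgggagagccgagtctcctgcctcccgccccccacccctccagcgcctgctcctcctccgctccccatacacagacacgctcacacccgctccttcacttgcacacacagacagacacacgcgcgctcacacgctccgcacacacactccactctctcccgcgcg

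Each promoter holds the core 4 times, counting both strands, and all copies lie before the start. Among 32851 RefSeq promoter windows of this length, 20.8% hold the core at least once and 0.231% at least 4 times. The windows are rich in G and C, at 72.3% for Nr4a1, 81.7% for Nr4a2 and 64.7% for Nr4a3, where the median window has 52.7%. The full palindrome TGACGTCA, which contains the core, in 1.79% of windows, is in none of the 3, nor is the AP-1 element TGANTCA (7.81%), the element AAAGGTCA that Nr4a receptors bind as monomers (1.51%) or the B box GTTCNANNC of RNA polymerase III genes, which TFIIIC binds (9.32%). The loose core of the CArG box, which serum response factor binds, taken as CC and GG with any bases at the spacing of that box, matched 3 times at Nr4a1, 8 times with overlaps at Nr4a2 and 0 times at Nr4a3, and 73.3% of windows hold it. All searches covered both strands, and a match is a description of letters, not a measured binding site.

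The first comparison asked how much of each gene lay in Gtf3c1 regions without and with KCl. In Nr4a1 the cover was 15.5% of the gene without KCl and 63.2% with it. In Nr4a2 it was 16.0% and 54.8%, and in Nr4a3, the longest of the 3, 30.0% and 89.0%. All 3 genes were thus covered more with KCl, by 47.8, 38.8 and 59.1 percentage points, and the lowest KCl value lay above the highest untreated one. A difference of at least 10 points in this direction was found at 4.08% of 21887 protein-coding genes, and one in the other direction at 1.98%. Ordered by their difference the members were number 79 (Nr4a1), 146 (Nr4a2) and 46 (Nr4a3) of these genes, whose mean cover was 4.21% and 4.88%. Together 18.4 kb of 79.4 kb lay in Gtf3c1 regions without KCl and 59.5 kb with it.

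**Figure D1:**
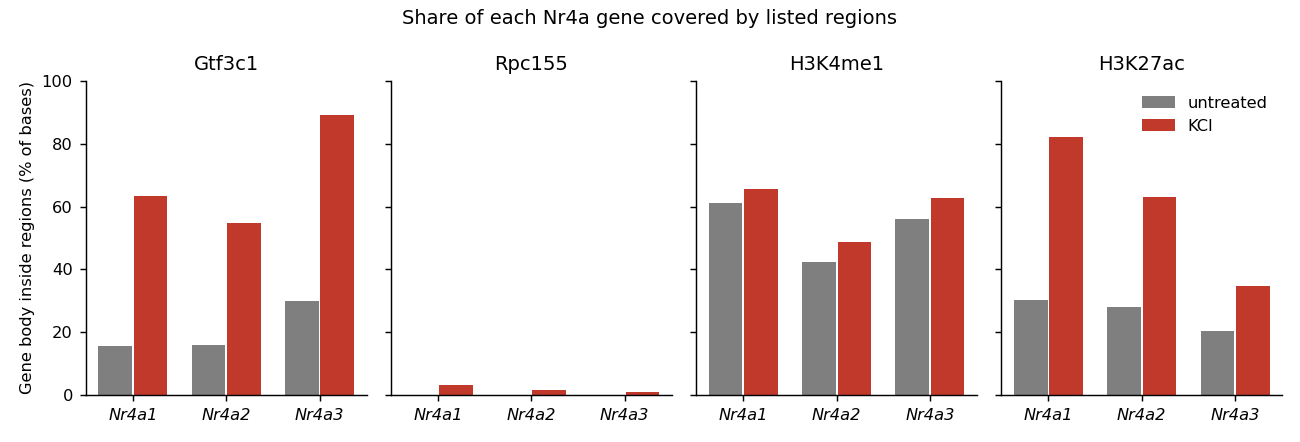
Percent of the bases of Nr4a1, Nr4a2 and Nr4a3 (x axis) that lie in listed regions (y axis), for 4 antibodies, with grey bars for the untreated and red bars for the KCl list (1 list per bar). Gtf3c1 and H3K27ac cover more of all 3 genes in the KCl list, H3K4me1 covers between 42.3% and 65.6% in both lists, and Rpc155 covers at most 3.12%.

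Gtf3c1 regions were longer with KCl, and fewer in Nr4a1 (6 and 3) and Nr4a3 (18 and 10) but not in Nr4a2 (4 and 5). The 3 genes together held 28 regions with a median length of 412.5 bp without KCl and 18 with a median of 1573 bp with it. At Nr4a1, the untreated regions inside the gene were 6, at most 1209 bp long. With KCl, a region of 10633 bp (chromosome 15, 101264054 to 101274686, fold enrichment 11.7) ran from -2.79 to 7.84 kb relative to the start, where the gene itself ends 7950 bp after the start, and the next one began 98 bp beyond that end. At Nr4a3, 18 untreated regions were spread over the gene, and with KCl the longest was 14767 bp (chromosome 4, 48042473 to 48057239, fold enrichment 17.8), followed by 9 regions of 386 to 7349 bp. At Nr4a2 the longest KCl region spanned 7251 bp (chromosome 2, 57110277 to 57117527, fold enrichment 9.87), well inside the gene, while a region of 1412 bp lay on the start. Of the bases that Gtf3c1 covered in the untreated list, 84.9% in Nr4a1, 92.2% in Nr4a2 and 100% in Nr4a3 were covered with KCl too.

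**Figure D2:**
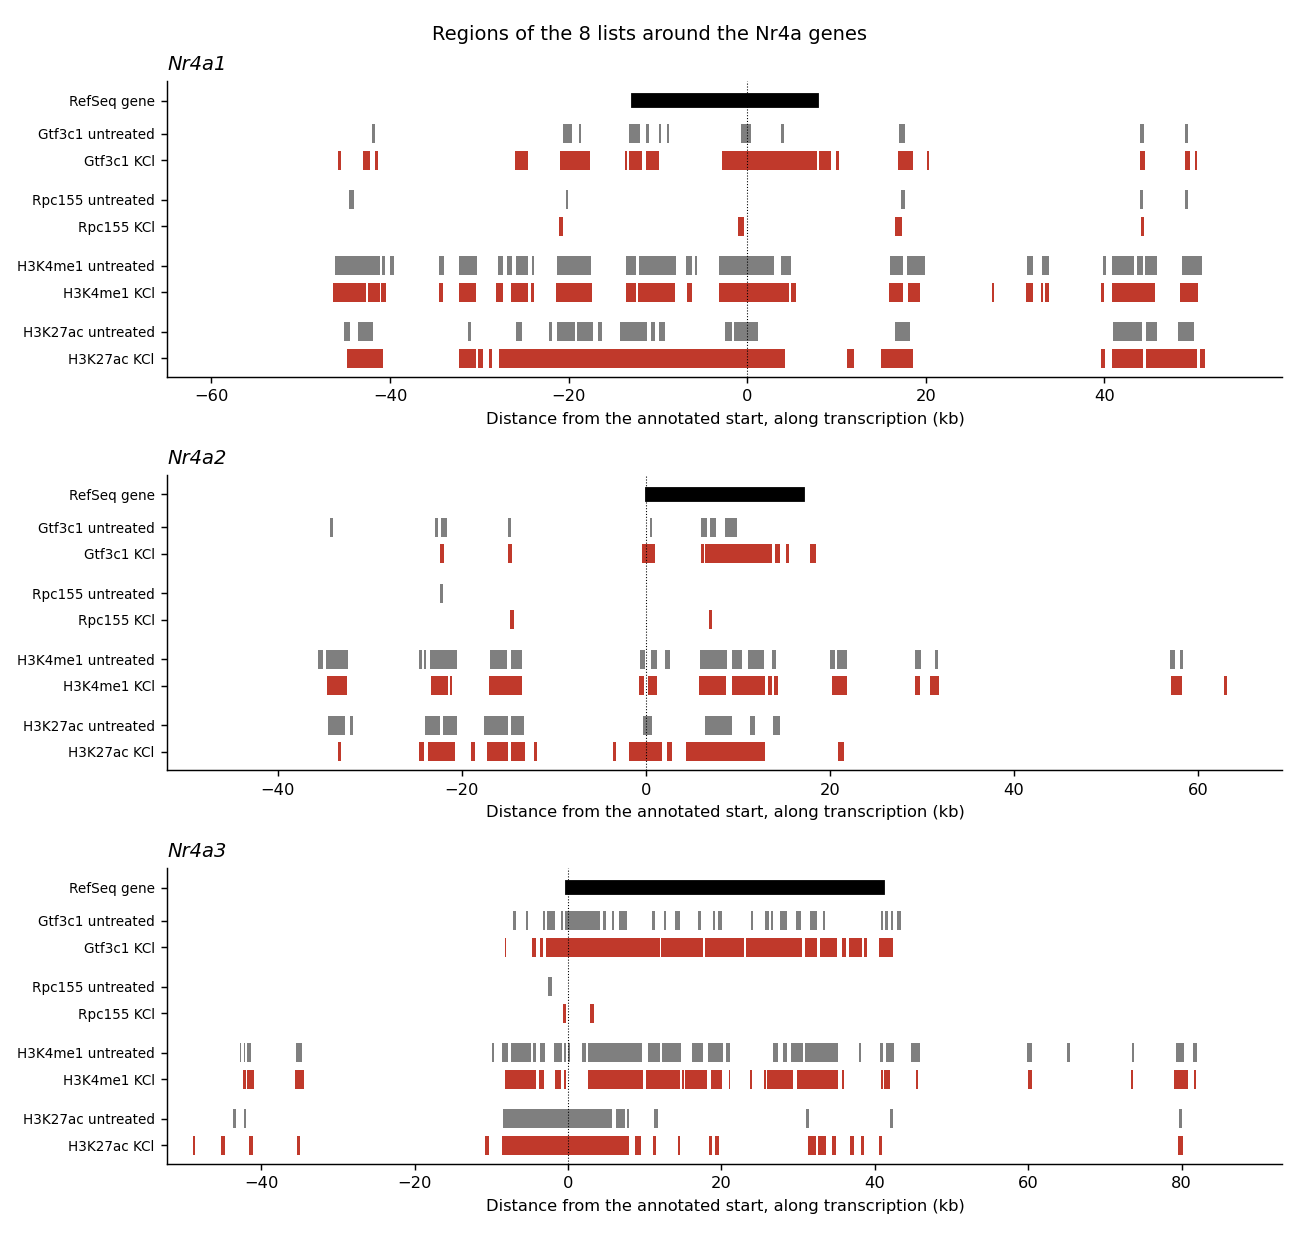
Position of every region of the 8 lists (rows, grey for untreated and red for KCl) around Nr4a1, Nr4a2 and Nr4a3, drawn to scale as distance in kb from the annotated start along the direction of transcription, with the RefSeq gene as a black bar. In the KCl rows of Gtf3c1 long regions fill most of Nr4a3 and the part of Nr4a1 after its start, and at Nr4a1 a KCl region of H3K27ac 32072 bp long joins the upstream flank to the gene.

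The parts of the genes differed. In Nr4a1, Gtf3c1 covered 57.5% of the bases within 1 kb of the start in untreated neurons and 100% with KCl. From 1 kb after the start to the midpoint of the stretch between start and gene end the values were 6.22% and 100%, and from the midpoint to the end 5.01% and 97.3%. In Nr4a3 the start was already covered for 83.1% in untreated neurons (100% with KCl), the stretch up to the midpoint went from 36.9% to 97.3%, and the stretch from midpoint to gene end went from 19.2% to 80.5%. In Nr4a2 the order was different: the start went from 9.90% to 70.2%, the stretch up to the midpoint from 16.5% to 31.2% and the part beyond it from 15.2% to 70.5%. Cover extended past the 3′ ends. In the 2 kb beyond the gene, Gtf3c1 covered 0% and 67.4% at Nr4a1, 0% and 32.2% at Nr4a2, and 39.9% and 64.5% at Nr4a3.

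Strength was compared by the highest fold enrichment among regions within 1 kb of the gene, a value the peak caller gives for the summit over its local background. For Gtf3c1 it was 4.66 without and 11.7 with KCl at Nr4a1, 4.48 and 9.87 at Nr4a2, and 6.63 and 17.8 at Nr4a3. The KCl values were 2.504, 2.204 and 2.680 times the untreated ones. A ratio of at least 1.5 was found at 12.6% of the 10994 protein-coding genes with Gtf3c1 in both lists, whose median ratio was 1.04. At Nr4a1 and Nr4a3 the KCl summits lay at 0.031 and 0.042 kb from the annotated start. The summit of the untreated region on the start was at -0.593 kb at Nr4a1 and at 0.127 kb at Nr4a3. At Nr4a3 that region had a fold enrichment of 6.27 and was not the strongest untreated one. The strongest, with 6.63, had its summit 32.2 kb after the start, so the ratio at Nr4a3 sets different places side by side. At Nr4a2 the strongest summit was inside the gene in both lists, 6.16 kb after the start in untreated neurons and 9.33 kb with KCl, and the KCl region on the start itself had a fold enrichment of 4.66.

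**Figure D3:**
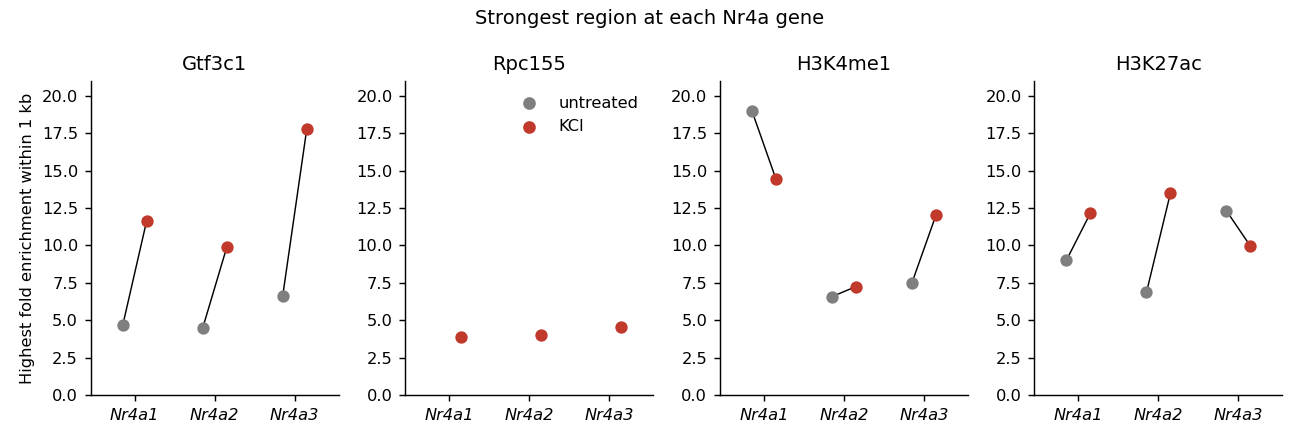
Highest fold enrichment (y axis) among regions within 1 kb of Nr4a1, Nr4a2 and Nr4a3 for 4 antibodies, grey for the untreated and red for the KCl list, joined by a line where both exist. Gtf3c1 is higher with KCl at all 3 genes, Rpc155 is listed with KCl alone, and H3K4me1 at Nr4a1 and H3K27ac at Nr4a3 are lower with KCl.

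RNA polymerase III itself was compared next. Within 1 kb of the genes, the untreated list of Rpc155 held no region and the KCl list had 4, with at least 1 at each gene. At Nr4a1 the region lay at chromosome 15, 101265836 to 101266487 (fold enrichment 3.88), its summit at -0.97 kb from the start. At Nr4a2 it lay at chromosome 2, 57116803 to 57117094 (4.00), 6.99 kb after the start and inside the long Gtf3c1 region. At Nr4a3 there was a region just before the gene (chromosome 4, 48044722 to 48045003, fold enrichment 4.54) and another 3.25 kb after the start (48048217 to 48048634, 3.27). All 3 genes were therefore in the KCl list alone, as were 3.46% of protein-coding genes, while 20.7% were in the untreated list alone and 8.98% in both. The whole Rpc155 list was longer in untreated neurons (12531 against 4251 regions). Cutting it to the length of the KCl list could not change these calls, because it held no region within 1 kb of the members before the cut.

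These Rpc155 regions were not among the strongest of their list, of which 58.5% of regions were at or below the fold enrichment of the one at Nr4a1, 62.2% at Nr4a2, and 73.8% and 20.8% at Nr4a3. The median of the KCl list was 3.79, and the tRNA genes n-TAcgc8 and n-TGgcc8, 58075 and 58391 bp from Nr4a2 and so just outside its surroundings, shared a region with a fold enrichment of 57.6 without KCl and 61.6 with it. With q limited to 1e-05, only Nr4a3 was left with a region, the one just before the gene. Within 5 kb, Nr4a3 was in both lists through an untreated region 1.90 kb before the gene (48042756 to 48043175, fold enrichment 3.57).

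H3K27ac covered 30.3% of Nr4a1 without KCl and 82.2% with it. In Nr4a2 it covered 28.1% and 63.1%, and in Nr4a3 20.2% and 34.8%. The differences of 51.8, 35.0 and 14.6 points all passed 10 points, as did those of 7.26% of protein-coding genes, while 0.525% were lower by as much. Nr4a3 was thus the member with the largest difference in Gtf3c1 and the smallest in H3K27ac. With q limited to 1e-05, the H3K27ac difference of Nr4a3 was 4.90 points, and with regions of at least 6-fold enrichment 5.21 points, so it no longer passed.

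The strength of H3K27ac differed less evenly than its cover. The highest fold enrichment was 9.01 and 12.2 at Nr4a1, 6.86 and 13.5 at Nr4a2, and 12.3 and 9.95 at Nr4a3, so Nr4a3 had the highest untreated value and the lowest KCl value of the 3. Over the 12728 protein-coding genes listed in both conditions the median ratio was 1.38, and 36.9% had a ratio of at least 1.5. Divided by that median, the ratio was 0.982 at Nr4a1, 1.43 at Nr4a2 and 0.587 at Nr4a3. In each of the 3 promoter windows all 300 bases lay in an H3K27ac region in both lists.

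H3K4me1 differed less. It covered 61.2% and 65.6% of Nr4a1, 42.3% and 48.8% of Nr4a2, and 55.9% and 62.7% of Nr4a3. No member differed by 10 points, where 2.94% of protein-coding genes were higher by that much with KCl and 1.21% lower. The highest fold enrichment was 19.01 and 14.5 at Nr4a1, 6.58 and 7.24 at Nr4a2, and 7.49 and 12.01 at Nr4a3. Only Nr4a3 reached a ratio of 1.5, as did 5.72% of the 16044 genes listed in both. The difference in cover depended on the setting. With q limited to 1e-05, it was 2.99 points at Nr4a1, 10.5 at Nr4a2 and 13.5 at Nr4a3, and the last pair passed. When only regions of at least 6-fold enrichment counted, it was 8.81 points at Nr4a1, 28.2 at Nr4a2 and 20.5 at Nr4a3.

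The bases that Gtf3c1 covered with KCl alone carried H3K27ac to different degrees. They came to 10470 bp in Nr4a1, of which 65.5% lay in KCl regions of H3K27ac, and to 6882 bp in Nr4a2, of which 75.7% did. In Nr4a3 they came to 24435 bp and 24.4% did. H3K4me1 covered 75.2%, 82.2% and 63.6% of the same bases. Towards the 3′ ends Gtf3c1 with KCl covered more than either mark in each gene. Between midpoint and end of Nr4a1, Gtf3c1 covered 97.3% with KCl, H3K4me1 31.9% and H3K27ac 6.39%. In the same stretch of Nr4a3 the values were 80.5%, 48.1% and 18.4%, and in Nr4a2 they were 70.5%, 52.8% and 51.0%. In the 2 kb past the gene end, Gtf3c1 covered 67.4% at Nr4a1 and 32.2% at Nr4a2 with KCl, and both marks 0%. At Nr4a3 Gtf3c1 covered 64.5% there, H3K4me1 40.05% and H3K27ac 0%.

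The flanks of the genes were compared by regions that reached to within 50 kb and lay more than 1 kb from the gene. Gtf3c1 had 15 such untreated regions, 5 of them in that list alone (33.3%, exact binomial 95% interval 11.8 to 61.6, counting error only), and 16 KCl regions, 8 of them in their list alone (50.0%, 24.7 to 75.3). Over the whole lists these shares were 54.4% and 48.9%, within both intervals. Of the 98 kb of flank per gene, Gtf3c1 covered 3.11 kb and 10.2 kb around Nr4a1, 1.61 kb and 1.23 kb around Nr4a2, and 2.60 kb and 2.97 kb around Nr4a3. The larger flank cover with KCl was thus at Nr4a1. Rpc155 had 7 distal untreated regions, 5 in that list alone (whole list 82.4%), and 4 with KCl, 2 in that list alone (48.1%). The order of these counts turned with the setting: with q limited to 1e-05 there were 0 untreated and 2 KCl regions in 1 list alone, and with equal list lengths 1 and 3.

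The flank cover of H3K27ac also differed most at Nr4a1. It covered 15.9 kb and 35.3 kb around Nr4a1, 9.18 kb and 10.1 kb around Nr4a2, and 8.50 kb and 10.0 kb around Nr4a3. Of 25 distal KCl regions 15 were in that list alone (60.0%, 38.7 to 78.9), against 31.9% of the whole list, and of 21 untreated ones 3 were (14.3%, 3.05 to 36.3), against 37.3%. At Nr4a1 the KCl region of 32072 bp reached into the gene and so was not counted as distal. The separate untreated regions that it covered in the flank were counted, as shared. This handling raises the share in 1 list alone for KCl and lowers it for untreated. The intervals cover counting error within these lists and neighbouring regions are not independent, so they are no test of the conditions. With q limited to 1e-05, the regions in 1 list alone numbered 3 with KCl and 1 without. H3K4me1 covered 51.1 kb and 49.5 kb of the 3 flanks together, and 7 of its 47 untreated and 2 of its 37 KCl regions were in 1 list alone, where the whole lists had 18.3% and 21.5%.

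**Figure D4:**
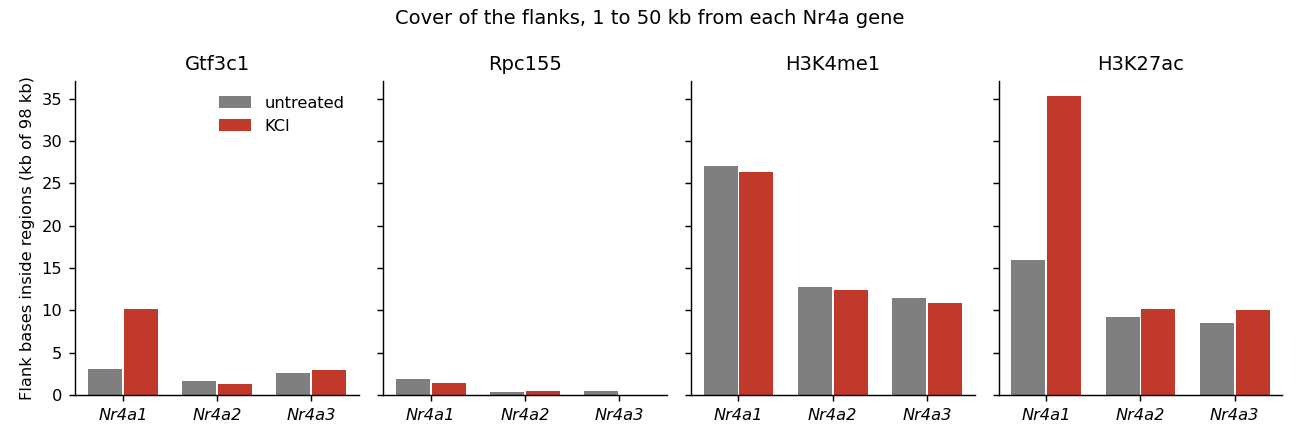
Bases in listed regions (y axis, kb) in the flanks of each gene, from 1 to 50 kb on either side (98 kb in all), for 4 antibodies, grey for the untreated and red for the KCl list. Around Nr4a1 Gtf3c1 goes from 3.11 to 10.2 kb and H3K27ac from 15.9 to 35.3 kb, whereas around Nr4a2 and Nr4a3 the bars of each antibody are close in height.

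The distal Gtf3c1 region with the longest KCl extent lay upstream of Nr4a1, where the KCl summit was at -20.5 kb from the start. Gtf3c1 was listed at chromosome 15, 101246193 to 101247234 (fold enrichment 5.01) without KCl and, as a region of 3290 bp with a value of 11.5, at 101245905 to 101249194 with it. The KCl region also covered a second untreated one at 101247976 to 101248239. Rpc155 was listed there in both conditions at places that did not overlap, 101246509 to 101246757 (2.89) untreated and 101245753 to 101246243 (4.18) with KCl. Another Gtf3c1 region, at 101240890 to 101242310 (4.31), was listed with KCl alone, on H3K4me1 regions whose fold enrichment was 10.1 without KCl and 18.5 with it. All of these lay in the H3K27ac region that spanned 101239003 to 101271074 with KCl (fold enrichment 12.2), where the untreated list had separate H3K27ac regions.

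On the other side of Nr4a1 the strongest Gtf3c1 region of the flanks overlapped Atg101, an autophagy gene, at 101283888 to 101284515 (fold enrichment 14.3) without and 101283745 to 101285455 (18.7) with KCl. It overlapped Rpc155 in both conditions (2.89 and 4.34), and its distance to Nr4a1 was 9093 bp without and 8950 bp with KCl. Farther on, Gtf3c1 at 101310866 to 101311324 had 7.16 and 7.36 in the 2 lists and Rpc155 had 3.91 and 3.63, so the values at this place were close.

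Around Nr4a2, Gtf3c1 was listed at -14.9 kb (untreated summit) and -14.7 kb (KCl summit) from the start, at chromosome 2, 57138676 to 57138980 (fold enrichment 4.09) in untreated neurons and 57138528 to 57138998 (6.64) with KCl. Rpc155 was there with KCl alone (57138324 to 57138727, 3.81). Farther out it was the reverse for Rpc155, whose summit lay at -22.1 kb, listed at 57146004 to 57146346 (2.89) in untreated neurons alone. Gtf3c1 was in both lists there (3.22 and 4.31 where they overlapped), and a further Gtf3c1 region beside it, at 57146547 to 57146919 (4.84), was in the untreated list alone. Both places lie in the long noncoding gene BB557941. Around Nr4a3 the outermost Gtf3c1 region lay 6.60 kb from the gene without KCl and 7.80 kb with it, while H3K4me1 and H3K27ac had regions up to 42.3 and 48.4 kb away, Stx17 included.

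Nearly all Rpc155 regions near the members lay on the other marks. Of 7 in the untreated list 6 overlapped Gtf3c1, 6 H3K4me1 and 7 H3K27ac, and all 8 in the KCl list overlapped all of them. Over the whole lists 76.3% and 81.8% overlapped Gtf3c1 and 80.6% and 87.3% H3K27ac, so these counts, from few regions, are read as near the background. Active distal enhancers, taken as distal H3K4me1 regions that overlap H3K27ac, numbered 21 of 47 without and 23 of 37 with KCl. Gtf3c1 was at 9 (42.9%, 21.8 to 66.0) and 12 (52.2%, 30.6 to 73.2) of them, and Rpc155 at 6 and 4. Over all such regions more than 1 kb from any protein-coding gene the Gtf3c1 shares were 41.8% and 30.2%, and those of Rpc155 15% and 5.86%. The sets are not defined alike, because regions near the members were kept when close to another gene. Of the distal H3K4me1 regions, 9 of 47 untreated and 10 of 37 KCl ones lay within 1 kb of another protein-coding gene. By gene, 8 of the 12 KCl enhancers with Gtf3c1 and 3 of the 4 with Rpc155 were around Nr4a1.

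The limit of 50 kb left a few regions just outside. For the KCl list of H3K27ac the outermost region inside and the nearest outside lay 42.7 and 51.4 kb from Nr4a1 (fold enrichment 3.65 and 2.30), 33.2 and 53.9 kb from Nr4a2 (2.43 and 3.11), and 48.4 and 70.7 kb from Nr4a3 (2.43 and 2.97). For the KCl list of Gtf3c1 at Nr4a2 they lay at 22.0 and 57.7 kb (4.31 and 14.5), the outer one at the tRNA genes.

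Other immediate-early families were set beside the Nr4a genes. All 7 AP-1 genes, which encode leucine zipper factors of the Fos and Jun groups, and all 4 Egr genes, which encode zinc finger factors, passed 10 points of Gtf3c1 cover with KCl, with medians of 72.7 and 57.2 points against 47.8 for the Nr4a genes and 0 over all protein-coding genes. Apart from Fosl2 these genes are shorter than the Nr4a genes, from 1840 bp (Junb) to 21369 bp (Fosl2), and Fos, Fosb, Jund, Junb and Egr1 were covered whole with KCl. For H3K27ac 3 of the 7 AP-1 genes, 3 of the 4 Egr genes and 3 of 3 Nr4a genes passed, with medians of 8.54, 50.2 and 35.0 points. Over all protein-coding genes 4.08% passed for Gtf3c1 and 7.26% for H3K27ac. Untreated H3K27ac cover was already 95.8% at Junb and 90.2% at Jund, so neither could pass 10 points, and it was 88.9% at Jun. By strength the order was different. The median ratio of the highest H3K27ac fold enrichment, KCl over untreated, was 1.92 for the AP-1 genes and 1.35 for the Nr4a genes. For the 3 Egr genes listed in both conditions it was 2.13. Rpc155 was within 1 kb in the KCl list alone at 3 AP-1 genes and 1 Egr gene. It was in both lists at 2 AP-1 genes and 1 Egr gene, and in neither at 2 and 2. Over all protein-coding genes 3.46% were in the KCl list alone and 8.98% in both. With 1 list per condition no test of a difference between the families is possible.

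**Figure D5:**
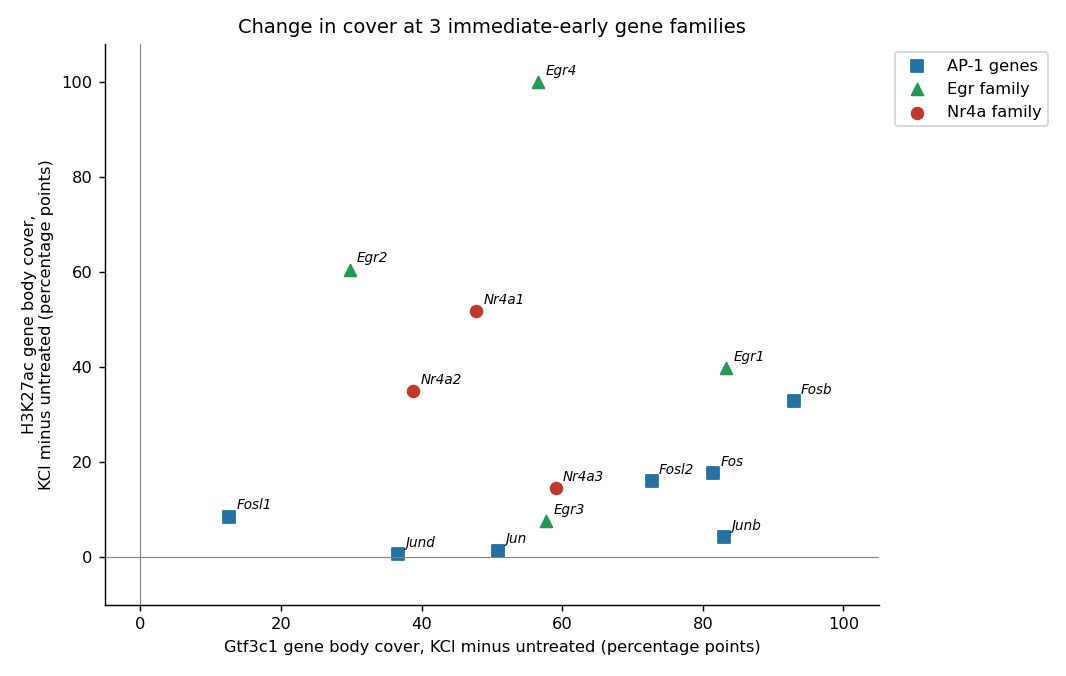
Difference in gene body cover, KCl minus untreated in percentage points, for Gtf3c1 (x axis) and H3K27ac (y axis), each point a gene of the AP-1 genes (blue squares), the Egr family (green triangles) or the Nr4a family (red circles). Every gene plotted lies to the right of 0 for Gtf3c1, and Nr4a3 lies lower than Nr4a1 and Nr4a2 for H3K27ac.

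By the Euclidean distance over the cover in the 8 lists, among genes within a factor of 2 in length, the gene most like Nr4a1 was the clock gene Per1 (29.1 points, 7940 genes compared), followed by Nr4a2 (32.8), Hdac5 (33.2), Cic (35.1) and Ldb1 (36.5). Per1 had 40.0% and 69.4% Gtf3c1 cover and 36.2% and 74.2% H3K27ac cover. Most like Nr4a2 were Hnrnpa2b1 (22.0 points, 7859 genes compared), Hnrnpu (22.9), Erg28 (23.7), Dlg4 (26.9) and Prr14 (27.7). Most like Nr4a3 were Cyp51 (31.7 points, 6815 genes compared), which encodes a sterol demethylase, then Ywhaz (32.4), the AP-1 gene Fosl2 (38.4) and Vps37b (40.1). Cyp51 had 23.1% and 78.1% Gtf3c1 cover. Nr4a3 was farther from its relatives, 57.1 points from Nr4a1 and 51.0 from Nr4a2, than from these genes.

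Genes that act with the Nr4a receptors were counted in the same way, with no test between the lists. Over all protein-coding genes 4.08% passed for Gtf3c1 with KCl and 1.98% were lower by as much, and 7.26% passed for H3K27ac. A list this short with none passing is near these shares. Among 15 genes upstream of the Nr4a genes, 3 passed 10 points of Gtf3c1 cover and none was lower by as much, with a median of 1.29 points: Srf, which encodes serum response factor (34.7% and 74.8%), Mef2d, a calcium-responsive factor (16.7% and 42.2%), and Hdac5, a deacetylase that binds MEF2 factors (24.9% and 47.1%). The same 3 passed for H3K27ac. Creb1, Crtc1 and the other 10 did not pass for either. Of 7 partners and corepressors none passed for Gtf3c1 with KCl, Rxrb (29.8% and 16.2%) was lower, and Trim28 passed for H3K27ac. Of 28 other nuclear receptor genes none passed for Gtf3c1 with KCl and 2 were lower, Nr1d1 (74.0% and 48.0%) and Thra (58.8% and 45.4%), while 4 passed for H3K27ac, namely Nr1d1, Rara, Nr2f2 and Nr2f6. The median difference of this list was -0.0947 points for Gtf3c1 and 0.402 for H3K27ac. Of 6 dopamine genes that depend on Nr4a2 in midbrain none passed for either antibody, and their mean Gtf3c1 cover was 0.387% and 0.116%.

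The labelled cell type was checked with H3K27ac within 1 kb of marker genes. All 6 markers of glutamatergic neurons, all 5 of neurons in general and all 3 of GABAergic neurons had a region in both lists. Of astrocyte markers 4 of 4 had one without KCl and 3 with it, of oligodendrocytes 2 of 4 in each and of endothelium 2 of 3 in each. None of the 4 microglial and 4 non-neural markers had one. Of 3 markers of midbrain dopamine neurons 1 had a region in both lists, Pitx3 (fold enrichment 2.54 without and 3.38 with KCl), while Th and Slc6a3 had none.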

How the data were processed

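The submitters' processing notes name Bowtie2, MACS2 and the build GRCm38/mm10, with versions, settings and replicate pooling not given in the sources used here. The 8 deposited lists give, per region, a fold enrichment (a ratio of the summit to local background), −log10 p and −log10 q, and a score, which equals 10 times the deposited −log10 q rounded down. These values are the authors'. All lists end at a q near 0.05 (lowest −log10 q 1.30 to 1.46). They hold no reads, so depth is unknown. Fold enrichments were not adjusted between lists, except in 1 alternative. The number of unused columns of per-sample values was 0.

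Coordinates are 1-based, and only the 19 autosomes and the sex chromosomes were kept. Genes, strands and promoter windows came from RefSeq (GRCm38.p6), in which all 3 members and all 70 listed genes were found. Cover is the percent of gene bases in regions. Calls were set at 10 points of cover or a ratio of 1.5, and overlap at 1 bp. Shares carry exact binomial (Clopper-Pearson) 95% intervals. Interval arithmetic was tested on simulated regions. No test compared conditions. Members, gene lists (upstream regulators, partners and corepressors, other nuclear receptors, dopamine genes, AP-1 genes, the Egr family, cell type markers) and rules were chosen with earlier results of these data known. Named genes were the members, the 5 genes most like each of them (1 of which is not reported here) and listed genes that passed a call. Alternatives were a q of 1e-05 or lower, equal list lengths, a fold enrichment of at least 6, other flanks and windows (20 and 100 kb), overlap at 50% of the shorter region, and ratios divided by the median over all genes. The cover of the flanks, and the settings tried for Rpc155 regions at the genes (within 5 kb among them), were chosen after seeing the data. Analyses used Python 3.11.15, numpy 2.4.6, pandas 2.3.3 and scipy 1.17.1.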

Additional observations from a re-analysis of the deposited data

How the results depend on the processing

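The larger Gtf3c1 cover and the higher Gtf3c1 fold enrichment of the 3 genes with KCl kept their direction, within 1.5 times the reported value, under each of the alternatives run for them. The mean H3K27ac difference did so too. Several of these settings could not have turned the direction. Equal list lengths shortened only the untreated lists of Gtf3c1 and H3K27ac, which cannot narrow a larger KCl cover. The q limit, equal list lengths and the use of regions overlapping the gene body kept the same strongest Gtf3c1 regions, so those ratios were unchanged. A fold enrichment of at least 6 left no untreated Gtf3c1 region at Nr4a1 or Nr4a2, where the strongest had 4.66 and 4.48. Dividing Gtf3c1 ratios of 2.204 to 2.680 by their median over all genes, 1.04, could not turn them either. The mean H3K4me1 difference of 5.90 points became 8.99 with q limited to 1e-05 and 19.2 with regions of at least 6-fold enrichment, and the mean Rpc155 difference of 1.94 points became 0 under both. Divided by the median over all genes, the median strength ratio of the members went from 1.35 to 0.982 for H3K27ac and from 1.10 to 1.03 for H3K4me1.

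Counts of distal regions in 1 list alone rest on few regions. At a q of 1e-05 or lower they were 2 in place of 5 for untreated Gtf3c1, 0 in place of 5 for untreated Rpc155 (2 as before for KCl), 6 in place of 2 for KCl H3K4me1, and 1 in place of 3 and 3 in place of 15 for untreated and KCl H3K27ac. With equal list lengths untreated Rpc155 had 1, KCl Rpc155 3 and untreated H3K27ac 0. In the 20 kb window the untreated and KCl counts were 3 and 5 for Gtf3c1, 1 and 1 for H3K4me1, and 0 and 8 for H3K27ac, with 2 for untreated Rpc155. In the 100 kb window they were 12 and 13 for Gtf3c1 and 12 and 6 for H3K4me1, with 8 for untreated Rpc155 and 7 for untreated H3K27ac. More than 1 kb from every protein-coding gene, KCl H3K4me1 had 1.

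Active distal enhancers numbered 11 in each list within 20 kb, and 34 untreated and 39 KCl within 100 kb. Those with Gtf3c1 numbered 4 and 7 within 20 kb and 14 and 20 within 100 kb, and 5 in the untreated list at a q of 1e-05 or lower. Those with Rpc155 numbered 0 and 2 at that q, and in the untreated list 2 with equal list lengths and 2 within 20 kb. The cause was not tested, other than that the settings hold fewer regions or a wider stretch. No paired analysis was possible because each antibody and condition has 1 list without a replicate number. Depth is unknown, so how far it limited the listing of weak regions could not be measured.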
